A study of Mus musculus with 21 samples.

Results

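The cytosolic ribosomal protein genes, which encode the proteins of the large and small subunits of the cytoplasmic ribosome, were followed through 7 sorted fractions of mouse bone marrow. Members were taken by name, as every RefSeq symbol made of Rpl, Rps or Rplp and a number with or without a closing a, x or y. There were 74 such genes on the array (46 of the large and 28 of the small subunit), among 18217 genes named there. These 74 genes had 106 probes, 26 of them more than 1, and the brightest probe stood for the gene. All 74 passed the filter on dim probes, and 73 were well above background on all 21 arrays. The remaining one, Rpl5, was above background on 20 and lost 1 spot (PreGM replicate 2) as an outlier, so its PreGM values rest on 2 arrays.

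The cells were primary cells of C57BL/6 mice, with 3 arrays for each of 7 fractions and no treatment or genetic change in any of them. KLS is the fraction that lacks lineage markers and carries c-Kit and Sca1, and holds the stem and multipotent progenitor cells. PreMegE (CD150+, CD105-), CFUe and Ter119 (CD71+, Ter119+) form the erythroid series, and PreGM, GMP and Mac1Gr1 (Mac1+, Gr1+) the granulocyte and macrophage series. The labels give CFUe and PreGM the same surface gate, so their separation was not checked from the gate. They do not say how many mice gave a sample or whether marrow was pooled, so p-values measure the spread between these samples, which may be technical. Bulk RNA cannot tell fewer cells of a type from less RNA per cell.

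Each cytosolic ribosome carries 1 copy of most of these proteins beside its ribosomal RNAs, and the proteins are made in the cytoplasm, imported into the nucleolus and built into the subunits there. Their mRNAs typically begin with a C followed by a run of pyrimidines, the 5′ terminal oligopyrimidine (TOP) tract, through which mTOR signalling sets their translation. Ribosome supply matters in the erythroid lineage in particular, since inherited loss of 1 copy of RPS19, RPL5, RPL11 and other ribosomal protein genes causes Diamond-Blackfan anaemia in people. Late erythroid cells lose their nucleus and then their ribosomes as they mature.

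RefSeq start windows (GRCm38.p6) were at hand for 55 of the 74 members, in 65 windows of 250 bases before and 50 bases after an annotated start. A C followed by at least 4 further pyrimidines was searched on the transcribed strand from 5 bases before to 14 bases after the start. It lay in 34 of the 65 windows (52.3%) and 32 of the 55 genes, against 23.2% of all 32851 windows. Exactly at the annotated first base it stood in 20% of the members' windows and 2.51% of all. GATAAG on either strand, a GATA factor core, was in 16.9% of the members' windows and 7.44% of all. Windows of 9 genes are printed here because their genes span the range of changes described further on. Each line is 30 bases long, the annotated start is its base 16, and capitals mark the pyrimidine tract where 1 was found. The genes lie at chr7:109519180-109519209 (Rpl27a, plus strand), chr9:120571502-120571531 (Rpl14, plus), chr1:39367836-39367865 (Rpl31, plus), chr17:27635230-27635259 (Rps10, minus), chr7:3704026-3704055 (Rps9, plus), chr3:90213634-90213663 (Rps27, minus), chr17:28328456-28328485 (Rpl10a, plus), chr7:24884577-24884606 (Rps19, plus) and chr5:107900513-107900542 (Rpl5, plus).
Rpl27a: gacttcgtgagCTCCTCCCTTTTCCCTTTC
Rpl14: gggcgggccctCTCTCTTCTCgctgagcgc
Rpl31: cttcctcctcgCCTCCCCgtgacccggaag
Rps10: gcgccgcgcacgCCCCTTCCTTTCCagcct
Rps9: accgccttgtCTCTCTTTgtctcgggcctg
Rps27: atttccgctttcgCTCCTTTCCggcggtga
Rpl10a: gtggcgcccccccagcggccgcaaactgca
Rps19: tccgaaatctcgcgagactcgacgcccgac
Rpl5: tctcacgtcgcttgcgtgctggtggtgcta

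The other frequent motif was CTTCCG on either strand, the core that ETS factors bind, which can overlap the tract. It occurred in 40 of the members' 65 windows (61.5%) and in 16.9% of all windows. TATAAA, the TATA box core, was in 9.23% of the members' windows and 13.6% of all. In Rps27 the CTTCCG began 80 bases before the annotated start (chr3:90213711-90213740, minus strand), and in Rps10 its reverse complement began 28 bases before it (chr17:27635255-27635284, minus strand), as the capitals mark.
Rps27: agagtagaagacCTTCCGaagatggcgaag
Rps10: agccgcgcagccCGGAAGagacgctgcgcc

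A level here is log2 of the processed signal minus log2 of the 75th percentile of the same array, so 0 is the array's 75th percentile. A change is a difference of mean levels, called when limma's adjusted p was under 0.05 and the change at least 2-fold. Every array had 43379 spots that were no controls, none of them saturated. Arrays of 1 fraction correlated at 0.977 to 0.993 over the 29527 probes that passed the filter on dim probes. Arrays of different fractions correlated at 0.964 at most. The mature fractions carried transcripts of other cells. All 12 granulocytic markers were above background on all 3 Ter119 arrays, with a summed log2 level of 12.1 to 12.4, as in Mac1Gr1 (12.2 to 12.4) and against 2.54 to 5.49 in CFUe. All 9 B cell markers were above background in Ter119 (7.78 to 8.28, against 0.62 to 2.23 in CFUe), and 8 of 9 in Mac1Gr1 (5.44 to 6.21, against 3.18 to 3.4 in GMP). All 8 T cell markers were above background in Ter119 (3.10 to 3.27, against 0.12 to 0.64 in CFUe), and 7 of 8 in Mac1Gr1 (2.79 to 3.13, against -0.44 to 0.31 in GMP). In Ter119 all 8 macrophage markers were above background too (3.08 to 3.19, against -0.90 to -0.38 and 3 of 8 in CFUe). The macrophage markers summed to 4.19 to 5.63 in KLS and -0.48 to 0.36 in PreMegE. The 11 erythroid markers summed to 11.9 to 12.2 in Ter119, the highest of the 7 fractions. The part of these cells in the changes below was not tested.

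The ribosomal protein genes stayed at a high level from KLS through the progenitors and fell in the last step of both lineages. The median member stood at 7.65, 7.37 and 7.96 on the 3 KLS arrays. It was 8.05, 8.16 and 7.74 in PreMegE, and 8.18, 8.33 and 8.41 in CFUe. In Ter119 it was 6.49, 7.0 and 6.64, below every array of the 5 fractions of stem and progenitor cells. The other lineage ran from 7.99, 8.04 and 8.11 in PreGM over 7.75, 7.97 and 7.80 in GMP to 6.06, 6.36 and 6.46 in Mac1Gr1. The order of the fraction means from the top was CFUe (8.31 ± 0.12, SD, n = 3), PreGM (8.04 ± 0.06), PreMegE (7.98 ± 0.22), GMP (7.84 ± 0.12), KLS (7.66 ± 0.29), Ter119 (6.71 ± 0.26) and Mac1Gr1 (6.29 ± 0.21). From PreGM down to KLS each neighbour in this order lay within 1 SD of the next, while every PreGM array lay above every KLS array.

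**Figure D1:**
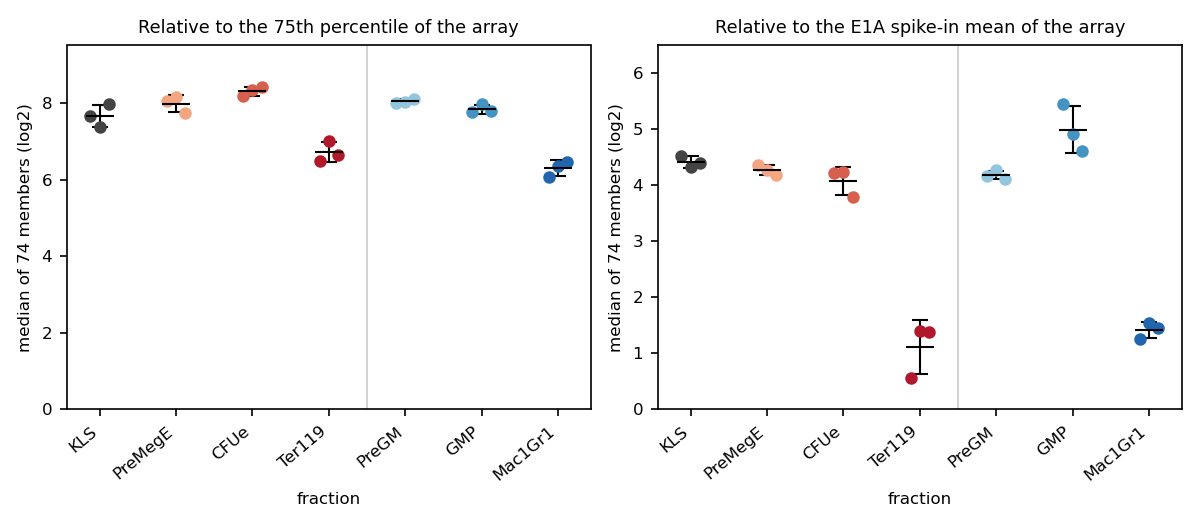
Median log2 level of the 74 ribosomal protein genes on each array (points), with the mean and SD of 3 arrays (black bars), relative to the array's 75th percentile (left) and to its E1A spike-ins (right); the grey line parts the erythroid series with KLS from the myeloid one. Ter119 and Mac1Gr1 lie lowest on both scales, while CFUe is highest on the left (8.31) and GMP on the right (5.0).

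The 75th percentile moves with the rest of the transcriptome, so the same probes were also set against the E1A spike-ins, synthetic RNAs added to an equal 150 ng of total RNA per sample. Values on that scale are per total RNA and not per cell. Per spike-in the members' median was 4.42 ± 0.10 (SD, n = 3) in KLS, and PreMegE (4.28 ± 0.09), PreGM (4.19 ± 0.08) and CFUe (4.08 ± 0.25) lay close to it. It fell to 1.11 ± 0.48 in Ter119 and 1.42 ± 0.14 in Mac1Gr1. The order of the progenitors changed, with GMP on top at 5.0 ± 0.43. GMP replicate 1 gave 5.46 there and the other GMP arrays 4.93 and 4.61, and its mean spike-in signal was the lowest of the 21 arrays (12.3 in log2 units). The gap between the progenitors and either mature fraction was wider on the spike-in scale.

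The question of the last erythroid step, from CFUe to Ter119, was how far the set fell as one. Of the 74 members, 61 fell (82.4%) and 0 rose at least 2-fold, whereas 28.0% of all 29527 tested probes fell and 29.2% rose. Without the minimum fold 70 fell (94.6%, background 38.5%) and 1 rose. The median change was -1.57, against 0.05 over all tested probes, and ranged from -2.98 for Rps19 to 0.99 for Rpl21. All 3 Ter119 arrays lay below all 3 CFUe arrays for 72 members, a description only, since the share of all probes so separated was not computed. Both subunits took part, with 38 of 46 large-subunit genes lower (median -1.62) and 23 of 28 small-subunit genes (median -1.49). On the 1 slide that held both fractions the median member differed by -1.54. Per spike-in 73 of 74 members fell, with a median of -2.95, where 56.0% of all probes fell and the median probe changed by -1.33.

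In the last myeloid step, from GMP to Mac1Gr1, 63 members fell (85.1%) and 1 rose, and 27.6% of all tested probes fell and 29.1% rose. Without the minimum fold 69 fell (93.2%, background 35.9%). The median change was -1.65 and that of all probes 0.17. The range ran from -3.50 for Rpl3 to 1.01 for Rpl21. For 70 members every Mac1Gr1 array lay below every GMP array, again without a computed share of all probes. Among the large-subunit genes 41 of 46 were lower (median -1.67), and among the small-subunit genes 22 of 28 (median -1.62). Per spike-in all 74 fell (median -3.69, against -1.86 over all probes, of which 70.0% fell), and 73 fell without GMP replicate 1. No slide held both fractions, so slide and fraction cannot be told apart in this step by a within-slide value.

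**Figure D2:**
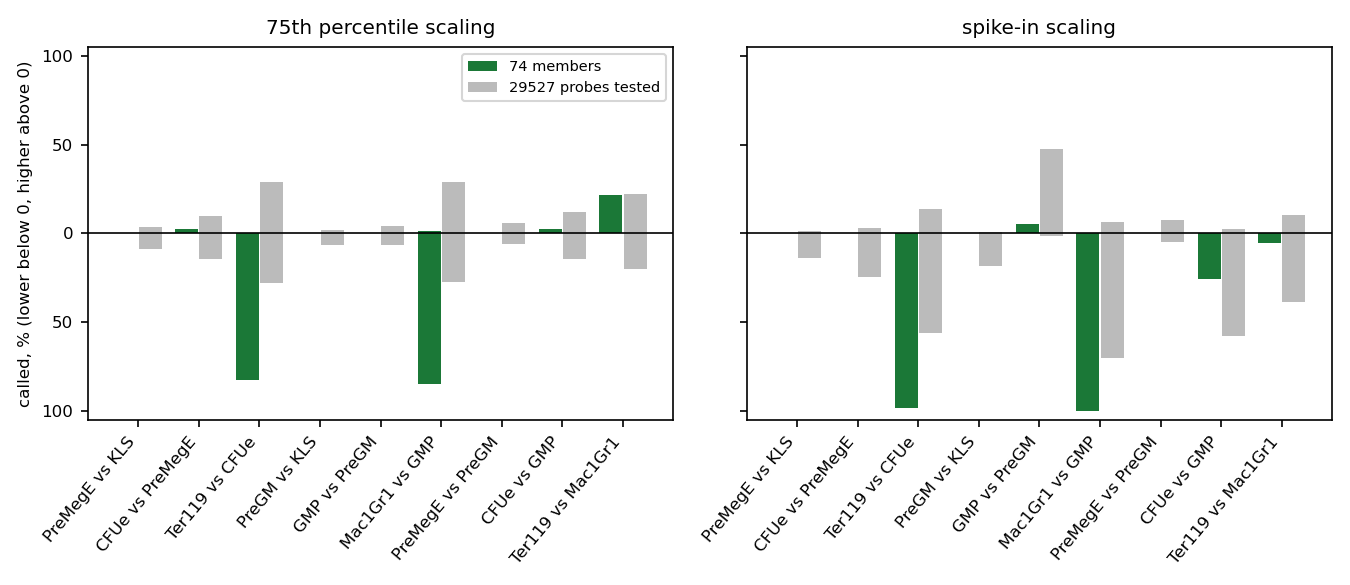
Share of the 74 ribosomal protein genes (green) and of the 29527 tested probes (grey) called at an adjusted p under 0.05 and at least 2-fold in each of 9 comparisons, higher above 0 and lower below, by 75th percentile scaling (left) and spike-in scaling (right). Members reached 82.4% and 85.1% lower in the last steps on the left, and stayed at or below the grey bars in the other comparisons.

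The steps had no array in common, and the members kept much of their order between them. Of the 61 members lower in Ter119 and the 63 lower in Mac1Gr1, 58 were lower in both, 95.1% of the first list and 92.1% of the second. Since 82.4% and 85.1% of the members fell in the single steps, a large overlap follows from those shares alone. Neither the share of all probes lower in both steps nor the correlation over all probes was computed. Across the 74 genes the 2 changes had a Pearson correlation of 0.86 and a Spearman correlation of 0.83, given as a description, since genes are not independent and each gene's points share a probe. The steepest falls were those of Rps19, Rpl3, Rpl10a, Rpl27a and Rpl31. By the brightest probe of each gene, the members called lower in neither step numbered 8, namely Rpl21, Rpl37a, Rplp0, Rplp1, Rps12, Rps16, Rps27 and Rps29. Rplp0 and Rplp1 are proteins of the acidic stalk, where elongation factors dock.

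Rps19 encodes a protein of the small subunit's head needed for 18S rRNA maturation. Its level was 6.04, 6.27 and 6.40 in CFUe and 2.78, 3.63 and 3.36 in Ter119, a change of -2.98 (SE 0.19, adjusted p 2.5e-10). In GMP it was 6.21, 6.15 and 5.92, and in Mac1Gr1 2.75, 3.06 and 3.24 (-3.08, SE 0.19, adjusted p 1.6e-10). No array of either mature fraction overlapped its progenitor. KLS, at 5.84, 5.64 and 6.08, overlapped both CFUe and GMP.

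Rpl3, a core protein near the peptidyl transferase centre, went from 7.67, 7.72 and 7.83 in CFUe to 4.65, 5.24 and 5.2 in Ter119 (-2.71, SE 0.14, adjusted p 1.2e-11). In the myeloid series it went from 7.19, 7.43 and 7.26 in GMP to 3.72, 3.88 and 3.78 in Mac1Gr1 (-3.50, SE 0.14, adjusted p 5.0e-13). Rpl10a fell by 2.62 and 3.45 in the erythroid and the myeloid step and Rpl27a by 2.69 and 3.12 (SE 0.15 each). Rpl31 fell by 2.75 and 2.17 (SE 0.13). All of these were lower on every array of the mature fraction.

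Rps27 is a small-subunit protein with a zinc finger. Its level was 8.29, 8.55 and 8.58 in CFUe and 8.02, 8.22 and 7.90 in Ter119 (-0.42, SE 0.13, adjusted p 0.0089). In GMP it was 7.92, 8.11 and 7.99 and in Mac1Gr1 7.82, 8.05 and 8.09 (-0.02, adjusted p 0.89), so the last 2 groups overlapped. Per spike-in Rps27 did fall, by 1.80 and 2.05. Rps12 changed by -0.39 and -0.15, on levels above 8 in every array but KLS replicate 2 (7.95).

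Rpl21 was the 1 member with higher estimates in both steps, and its probes disagreed. The brightest probe gave 3.39, 3.8 and 3.75 in CFUe and 4.83, 4.59 and 4.49 in Ter119 (0.99, SE 0.25, adjusted p 0.0017), and 2.51, 2.49 and 3.06 in GMP and 3.56, 3.69 and 3.85 in Mac1Gr1 (1.01, adjusted p 0.0015). The other Rpl21 probe fell by 2.69 and 3.0. Per spike-in the brightest probe changed by -0.39 and -1.02. No direction can be given for Rpl21 from these probes. Ribosomal protein genes have many near-identical processed copies in the mouse genome, and a probe may read some of them. Beside members called in the erythroid step 30 of 30 other probes had the same sign (29 also called). In the myeloid step it was 29 of 30 (27 also called), and the exception was the other Rpl21 probe.

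**Figure D3:**
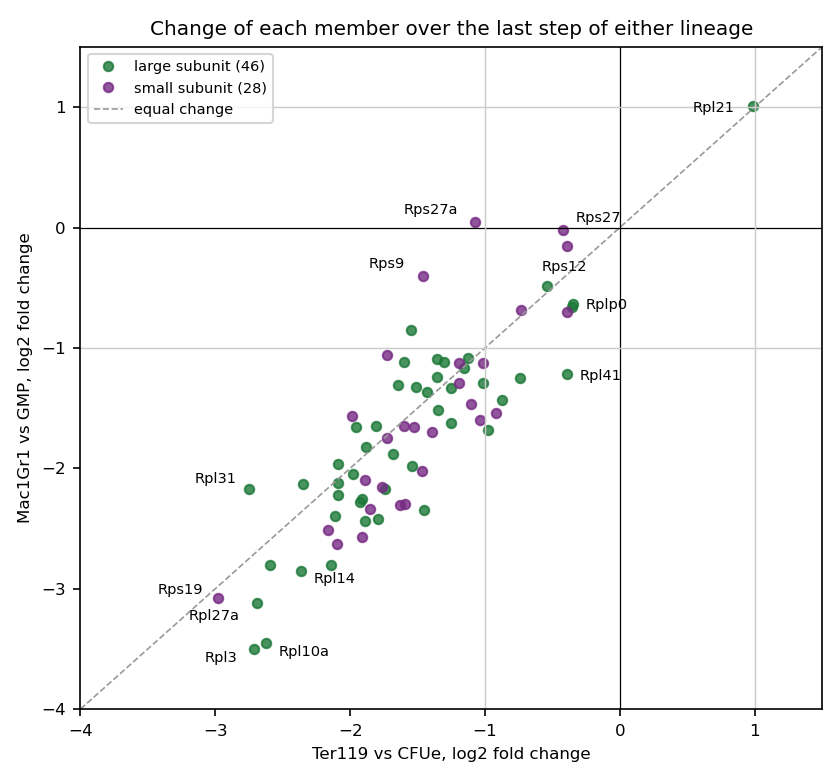
Log2 fold change of each of the 74 members from CFUe to Ter119 (horizontal) and from GMP to Mac1Gr1 (vertical), large-subunit genes in green and small-subunit genes in purple, with grey lines at 2-fold and a dashed line of equal change. Of the 74 points, 58 were called lower in both steps, Rps19, Rpl3, Rpl10a and Rpl27a lie at the lower left, and Rps27a and Rps9 lie off the diagonal.

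Of the first steps out of KLS, neither changed any member at least 2-fold (limma, 0 of 74 in each), where 3.55% of all probes rose and 8.86% fell in PreMegE, and 2.11% rose and 6.52% fell in PreGM. At an unadjusted p under 0.05, 30 members were higher in PreMegE and 54 in PreGM, none lower. The share of all probes at that unadjusted threshold was not computed, here or in the comparisons below, so such counts have no background. All 74 estimates were positive in both, with medians of 0.32 and 0.40, against 0.13 and 0.06 over all probes. Without the minimum fold 6 members rose in PreMegE (8.11%, background 13.4%) and 23 in PreGM (31.1%, background 14.0%). The highest were Rpl13a (0.55) and Rps10 (0.49) in PreMegE, and Rpl14 (0.66) and Rpl31 (0.63) in PreGM. Per spike-in the medians turned to -0.14 and -0.22, with 0 members called by limma or at an unadjusted p under 0.05 in either. On that scale 1.52% of all probes rose and 13.8% fell in PreMegE, 0.664% rose and 18.3% fell in PreGM, and the medians of all probes were -0.33 and -0.56.

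From PreMegE to CFUe 2 members rose, Rpl30 (1.05, SE 0.37, adjusted p 0.025) and Rpl31 (1.04, SE 0.13, adjusted p 3.7e-06), 2.70% of the set against 9.96% of all probes. The median was 0.36 and 73 of 74 estimates were positive, the other being Rps19 (-0.10, adjusted p 0.69). Without the minimum fold 27 rose (36.5%, background 27.3%). Rpl30, a large-subunit protein, was widely spread in PreMegE (7.23, 6.30 and 5.73) and narrowly in CFUe (7.31, 7.54 and 7.55). Rpl31 lies at the exit of the peptide tunnel. It was 3.0, 3.15 and 2.90 in PreMegE and 3.94, 4.08 and 4.16 in CFUe, with no overlap. Per spike-in 0 members were called here by limma (0 also at an unadjusted p under 0.05, with 2.82% of all probes higher and 24.5% lower) and the median was -0.16, so no rise of the set per total RNA was seen in this step.

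From PreGM to GMP 0 members passed the 2-fold call (limma), where 4.01% of all probes rose and 6.36% fell, 7 were lower at an unadjusted p under 0.05, and the median was -0.22. Without the minimum fold Rpl14 (-0.52, adjusted p 0.034) and Rpl27a (-0.43, adjusted p 0.047) fell (2.70% of the set, background 13.7%). The highest estimates were those of Rpl30 (0.24) and Rpl4 (0.02), neither past the test. Per spike-in the direction turned, with a median of 0.80 and 4 members higher (5.41%, background 47.5%). The median of all probes rose by 0.99 on that scale, more than the members'. Without GMP replicate 1 the members' median was 0.57 and 1 member was called. On the 1 slide that held both fractions the median member differed by -0.24, and by 1.29 per spike-in.

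Between lineages, PreMegE and PreGM did not separate the set. None of the 74 was called (limma, median -0.07, 1 member at an unadjusted p under 0.05), where 5.81% of all probes were higher and 6.23% lower in PreMegE, and the outermost estimates were -0.41 for Rpl27a and -0.23 for Rpl35a below and 0.14 for Rpl13a and 0.09 for Rps24 above. On the 2 slides that held both, the median member differed by 0.18 and -0.37. CFUe stood above GMP for all 74 estimates (median 0.50), and 52 passed without the minimum fold (70.3%, background 32.2%). At 2-fold Rpl14 (1.22, SE 0.17, adjusted p 1.5e-05) and Rpl31 (1.18, SE 0.13, adjusted p 7.0e-07) were higher, 2.70% against 12.1% of all probes. Per spike-in all 74 estimates lay on the other side, with a median of -0.88 and 19 members lower in CFUe (1 without GMP replicate 1), where 57.7% of all probes were lower.

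Ter119 stood above Mac1Gr1 for 70 of 74 estimates, with a median of 0.65. At 2-fold 16 members were higher, which is 21.6% and near the 22.0% of all probes that were higher (19.9% were lower). Without the minimum fold 55 were higher (74.3%, background 32.9%) and 1 lower, Rps9 (background 33.2%). The highest were Rpl14 (1.71) and Rpl10a (1.44), and the lowest Rps9 (-0.73) and Rps27a (-0.40, adjusted p 0.059). The count at 2-fold was 8 without Ter119 replicate 2 and 7 without Mac1Gr1 replicate 1. Per spike-in the median was -0.07 with 0 higher and 4 lower (5.41%), where 10.3% of all probes were higher and 38.9% lower, so on that scale the mature fractions did not differ in the median member beyond the spread of their arrays.

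The difference between the lineages was also tested itself. For the last step it was the change from CFUe to Ter119 minus that from GMP to Mac1Gr1. Its median was 0.18, and 2 members passed at 2-fold, Rps27a (-1.12, SE 0.26, adjusted p 0.0014) and Rps9 (-1.06, SE 0.26, adjusted p 0.0025), where 19.0% of all probes passed in that direction. Rps27a encodes a fusion of ubiquitin and a small-subunit protein. It fell from 8.35, 8.52 and 8.51 in CFUe to 7.27, 7.50 and 7.38 in Ter119, and was 7.49, 7.80 and 7.95 in GMP and 7.69, 7.81 and 7.87 in Mac1Gr1. Rps9, a small-subunit protein that binds early in assembly, fell from 7.23, 7.40 and 7.58 in CFUe to 5.50, 6.32 and 6.01 in Ter119. Its GMP levels were 7.02, 7.26 and 6.93 and its Mac1Gr1 levels 6.46, 6.77 and 6.77 (-0.40, adjusted p 0.059). Neither member passed at 2-fold with the slide as a block. Per spike-in the median of the difference was 0.84, and 27 members passed in the other direction (36.5%), near the 31.5% of all probes that did.

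The next largest differences were Rpl37 below (-0.69, adjusted p 0.045) and Rpl12 (0.90), Rpl10a (0.83) and Rpl41 (0.83) above. Rpl12 went from 8.64, 8.87 and 8.90 in CFUe to 7.14, 7.68 and 7.25 in Ter119, and from 8.17, 8.44 and 8.27 in GMP to 5.67, 5.98 and 6.18 in Mac1Gr1. Rpl41, the shortest protein of the ribosome, was 9.15, 9.27 and 9.29 in CFUe and 8.79, 9.11 and 8.65 in Ter119 (-0.39, adjusted p 0.057), and fell by 1.22 in the myeloid step. The mean of both Rpl37 probes gave a difference of 0.28, so its direction was not settled. For the second step, the change from PreMegE to CFUe minus that from PreGM to GMP had a median of 0.57 with all 74 estimates positive. At 2-fold 3 members passed, Rpl14, Rpl31 and Rpl27a, where 8.38% of all probes did, and 30 members passed without the minimum fold (40.5%, background 18.2%). Per spike-in its median was -0.96 and 34 members passed lower, against 63.8% of all probes.

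To see members that departed from the set, each array was also centred on its own median member. In these units 31 changes passed at 2-fold over the 9 comparisons, 13 in the erythroid and 15 in the myeloid last step and 3 between Ter119 and Mac1Gr1. The other 6 comparisons had none (limma, with 0 to 12 members at an unadjusted p under 0.05), where 0.867% to 20.6% of all probes passed in a given direction. Because this scale sets the median member to 0, most of all probes rose on it in the last steps (62.7% and 63.1%), and the count says only that members were unequal. Rpl3, Rpl10a, Rpl27a and Rps19 were lower than the median member in both last steps and Rpl21, Rpl37a, Rps12 and Rps27 higher in both. The values of Rpl21 rest on its brightest probe, which its other probe contradicts. The span of fraction means was widest for Rpl21 (3.07), Rpl14 (2.06), Rpl10a (2.05), Rpl3 (2.05), Rps19 (1.81), Rpl27a (1.80), Rps27a (1.66) and Rps27 (1.53). Rpl14 was highest in CFUe (3.44, 3.62 and 3.86 on the 75th percentile scale) and lowest in Mac1Gr1 (-0.72, -0.52 and -0.07), the only member below an array's 75th percentile.

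**Figure D4:**
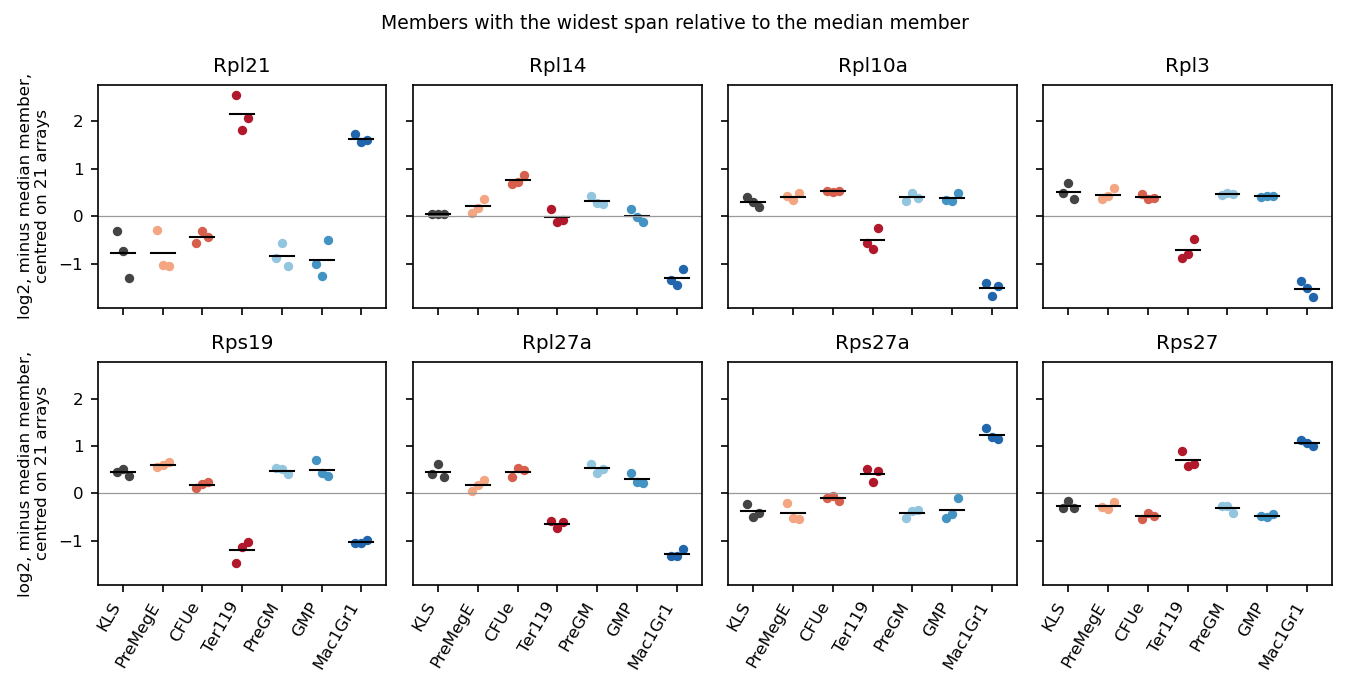
Level of the 8 members with the widest span relative to the median member of each array (log2, shifted so that each gene's mean over 21 arrays is 0), with 3 arrays per fraction (points) and their mean (line). Rpl10a, Rpl3, Rps19 and Rpl27a drop below the set in Ter119 and Mac1Gr1, Rps27 and Rps27a rise above it there, and the line of Rpl21 rests on a probe that its other probe contradicts.

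The change in the last steps went along with how bright a member's probe was. Across the 74 members the mean level and the change had a Spearman correlation of 0.74 in the erythroid step and 0.57 in the myeloid step, both as descriptions. The mean level was taken over all 21 arrays, those of Ter119 and Mac1Gr1 included. A steep fall thus lowers a member's own mean level, so level and change are not independent and part of the correlation may be built in. The 25 dimmest members changed by a median of -1.98 and -2.30, the middle 24 by -1.57 and -1.60, and the 25 brightest by -1.02 and -1.29. From PreMegE to CFUe the correlation was -0.00 and the 3 medians were 0.36, 0.36 and 0.35. The 4 dimmest probes were those of Rpl14, Rpl31, Rpl21 and Rpl27a, which are among the members named above for their changes. A member's mean log2 signal ran from 11.3 to 18 with a median of 16.8, and 39 of 74 lay above the second brightest spike-in (16.6) and 0 above the brightest (18.2). The brightest spike-in varied by an SD of 0.22 over the 21 arrays, and the other 6 by 0.30 to 0.37. Whether a smaller response of the scanner or the probes at the top of the range narrowed the changes of bright members was not tested. Scaled to the 2 brightest spike-ins alone, an alternative chosen after the data were seen, the medians were -2.98 and -3.51 and 73 members fell in each step.

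**Figure D5:**
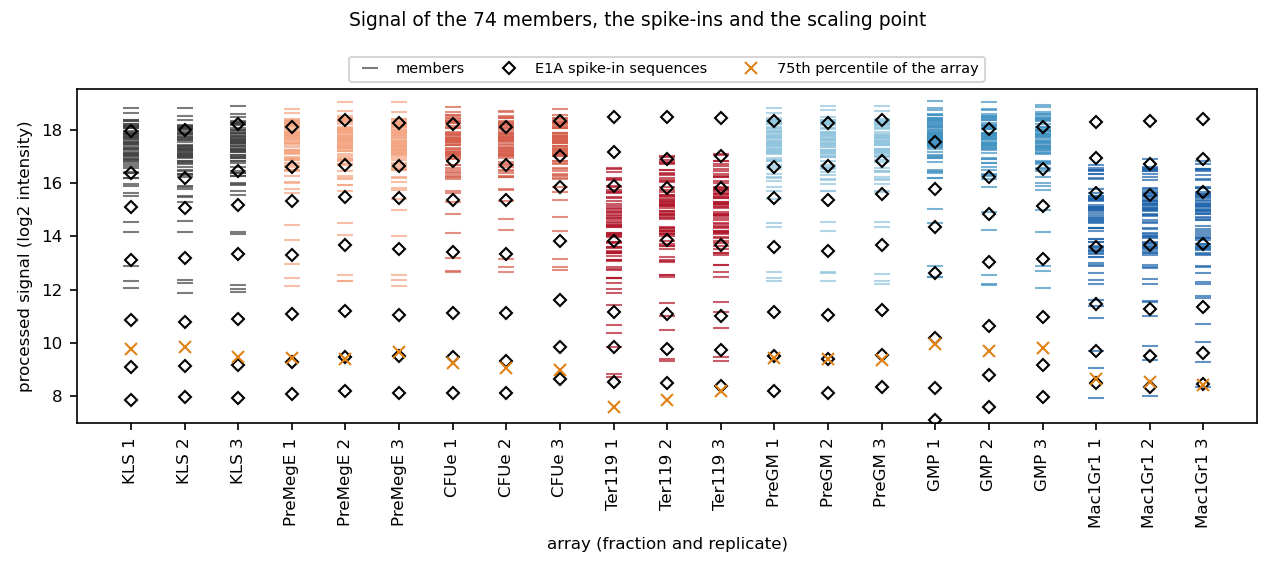
Processed signal (log2) of the 74 members (dashes, coloured by fraction), the 7 E1A spike-in sequences used (diamonds) and the 75th percentile (crosses) on each of the 21 arrays. Most members sit between the 2 brightest spike-ins in the progenitors and spread downwards in Ter119 and Mac1Gr1, while the 75th percentile is lowest in Ter119 and highest in GMP.

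Members with the pyrimidine tract occurred among those that fell steeply and those that did not. Rpl27a, which fell by over 2.6 in both steps, and Rps27, which hardly changed, both had the tract shown above, whereas the 2 windows of Rpl10a had none. Of the 3 windows of Rps19 the one printed above had none and the third, at chr7:24884898-24884927 (plus strand), had one, so Rps19 counts among the genes with the tract. The 32 genes with the tract changed by a median of -1.68 in the erythroid and -2.04 in the myeloid step, and the 23 without it by -1.51 and -1.46, so the myeloid median was lower with the tract. With CTTCCG the medians were -1.60 and -1.66 (38 genes), and without it -1.64 and -1.70 (17 genes). No test was made of these.

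Members whose human counterparts are mutated in Diamond-Blackfan anaemia moved with the rest. Of the 19 on that list, 17 fell in Ter119 (median -1.73, background 28.0%) and 17 in Mac1Gr1 (median -1.75, background 27.6%). From PreMegE to CFUe 1 of them rose, Rpl31, where 9.96% of all probes rose (median of the list 0.32). Rpl5 and Rpl11, which with 5S rRNA form a particle that binds Mdm2, fell by 2.11 and 1.43 in the erythroid step (SE 0.17 each) and by 2.40 and 1.37 in the myeloid step. Rpl11 was 8.30, 8.57 and 8.57 in CFUe and 6.81, 7.29 and 7.04 in Ter119, without overlap. Rps24, a small-subunit protein, was 8.44, 8.63 and 8.62 in CFUe and 7.45, 7.67 and 7.52 in Ter119 (-1.01, SE 0.22, adjusted p 0.00055), and fell by 1.13 in Mac1Gr1. Its call in Ter119 sat at the edge of 2-fold.

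The cytosolic ribosome components named outside the pattern did not all follow. Rpsa fell by 2.15 and 3.28 in the erythroid and myeloid step and Rack1, a scaffold on the small subunit, by 1.04 and 1.46. Fau, which encodes a fusion of a ubiquitin-like and a small-subunit protein, changed by 0.05 (adjusted p 0.78) and 0.46 (adjusted p 0.019). Rpsa, Rack1 and Fau all fell at least 2-fold per spike-in in both steps. Of 8 paralogs 7 were measured, and 4 fell and 1 rose in each step. Of all probes 28.0% fell and 29.2% rose in Ter119, and 27.6% fell and 29.1% rose in Mac1Gr1. Rps27l, the paralog of Rps27, fell by 3.39 and 2.54, Rpl36al by 2.43 and 3.08, Rpl22l1 by 2.38 and 2.36 and Rpl7l1 by 2.17 and 1.44. Rps4l changed by -0.42 and -0.60 and Rpl39l by -0.91 and -0.07 without a 2-fold call. Rpl3l, the muscle paralog of Rpl3, was on no CFUe array above background and on all 3 Ter119 arrays, at least 4.92-fold higher, and rose by 1.94 in Mac1Gr1, but not per spike-in (-0.09, adjusted p 0.83).

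In the last steps most factors that build ribosomes fell as well, where 28.0% of all probes fell in Ter119 and 27.6% in Mac1Gr1. Of 41 measured biogenesis factors, 41 fell in Ter119 (median -3.65) and 39 in Mac1Gr1 (median -3.96). The steepest in both was Gar1, of the H/ACA particles that modify rRNA (-5.31 and -5.72, SE 0.22), and the highest estimate in Mac1Gr1 was that of Efl1, which releases eIF6 from new large subunits (-1.74 in Ter119, and 0.16 with adjusted p 0.29 in Mac1Gr1, where it was lower per spike-in, at -1.87). From PreMegE to CFUe 22 of the 41 rose (median 1.02), where 2 of the 74 members and 9.96% of all probes did. Whether the lists differed was not tested. Of 12 genes of RNA polymerase I transcription 9 fell in Ter119 and 5 in Mac1Gr1, led by Polr1b (-4.50 and -4.36). Polr1a, the largest subunit of the polymerase, fell by 2.29 in Ter119 and rose by 1.15 in Mac1Gr1, where it was lower per spike-in (-0.88). The 78 mitochondrial ribosomal protein genes, which belong to a ribosome of another origin, had 76 lower in Ter119 and 64 in Mac1Gr1, and 50 higher from PreMegE to CFUe.

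Of 18 other genes with TOP mRNAs, mostly elongation factors, 16 fell in Ter119 and 15 in Mac1Gr1. Eef1g fell most (-3.0 and -3.07, SE 0.15). Pabpc1, the poly(A)-binding protein, rose in Ter119 (1.31, SE 0.14, adjusted p 1.9e-07), but not per spike-in (-0.06), and changed by -1.0 in Mac1Gr1. Among 9 measured genes of ribosome rescue 6 fell in each step, led by Abce1, which splits ribosomes after termination (-3.33 and -3.88), and Gtpbp2, which acts on stalled ribosomes, rose by 2.17 and 1.58, though per spike-in it was at 0.79 and -0.45. Of 12 genes of MYC and mTOR signalling 7 fell and 2 rose in Ter119, 1 of them Mycn, which was above background on 1 of 3 arrays there, and 4 fell and 2 rose in Mac1Gr1. Those Mac1Gr1 counts are near or below the 27.6% of all probes that fell and the 29.1% that rose. In Ter119 28.0% of all probes fell and 29.2% rose. Myc, a driver of ribosomal protein and rRNA genes, was 2.71, 2.56 and 4.14 in CFUe and -0.63, -0.60 and -0.45 in Ter119 (-3.70, SE 0.31, adjusted p 7.1e-09). It fell by 4.93 in Mac1Gr1, and its partner Max rose there by 2.50 (0.47 per spike-in, adjusted p 0.10). Mycn was at least 97.4-fold lower in CFUe than in PreMegE and at least 18.8-fold lower in GMP than in PreGM, and was on no CFUe, GMP or Mac1Gr1 array above background.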

How the data were processed

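Total RNA of 21 samples was labelled with Cy3 and hybridised to 1-colour Agilent whole mouse genome arrays. The authors deposited Agilent Feature Extraction output (version 10.7.1.1), whose processed signal is an intensity corrected for background, and a series table of normalized log2 values, used as an alternative (its rank correlation with the signal was at least 0.9998). The number of arrays limits the precision. Outlier spots (80 to 283 an array) were left out, spots of a probe were averaged, and log2 intensity minus the array's 75th percentile was fitted with limma 3.58.1 (R 4.3.3) over all 7 fractions, with Benjamini-Hochberg adjustment over 29527 probes that all 3 arrays of at least 1 fraction measured above background. Probes were named through RefSeq accessions (26690 of 41174, 64.8%). The spike-in level was the mean of 7 of 10 E1A sequences, those above background on all arrays. The median residual SD was 0.26 on 14 degrees of freedom. The fit was tested on simulated data.

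The members and lists were chosen with earlier results of these data known. Named members were the 2 largest rises and falls of each comparison, the 8 widest spans about the median member, the 3 largest lineage differences either way, Rps19, Rps24, Rpl5 and Rpl11. Named others were the paralogs, the components outside the pattern (1 is not reported here), Myc, Mycn and the extremes of each related list in the last steps. Members lower in neither last step were named after their values were seen. Alternatives were quantile and spike-in scaling, normexp background (offset 50, on the median signal, since the mean was not used here), no dim-probe filter, the mean of a gene's probes, slide (9) and replicate number as blocks, the series table, the compared fractions alone, no minimum fold and leaving out each array. Scaling to the 2 brightest spike-ins and the spike-in fit without GMP replicate 1 were chosen after the data were seen. All arrays were scanned on 1 day.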

Additional observations from a re-analysis of the deposited data

Results flagged for a closer look

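The same step differed between the lineages, by the interaction test of the limma fit at 2-fold, for 5 of the 74 members. In the last step these were Rps27a (-1.12, adjusted p 0.0014) and Rps9 (-1.06, adjusted p 0.0025), both of which fell in Ter119 and did not pass the test in Mac1Gr1 (Rps27a 0.04, Rps9 -0.40). Blocking on slide raised the adjusted p to 0.056 and 0.062, and neither difference passed per spike-in (-0.46 and -0.40, adjusted p 0.33 and 0.46). In the second step they were Rpl14 (1.40, SE 0.25, adjusted p 0.00030), Rpl31 (1.38, SE 0.18, adjusted p 1.8e-05) and Rpl27a (1.04, SE 0.22, adjusted p 0.0013), which were higher in CFUe than in PreMegE and had estimates of -0.52, -0.34 and -0.43 from PreGM to GMP. Per spike-in the sign of the difference turned for all 3 (-0.13, -0.15 and -0.49), and none passed the test. These 3 members are 4.05% of the set, against 8.38% of all probes higher in that difference. Rpl14, Rpl31 and Rpl27a had the 3 of the 4 dimmest probes of the set, and the part of brightness in these differences was not tested.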

How the results depend on the processing

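The fall of the set in both last steps held its direction and its count (within 1.5 times) under every alternative run. The size of the median, and its sign in several other comparisons, moved with the scaling. The median moved in Ter119 vs CFUe to -1.11 (quantile), -2.95 (spike-in), -1.33 (series table) and -2.98 (2 brightest spike-ins), and in Mac1Gr1 vs GMP to -1.96, -3.69, -2.25 and -3.51. In the same order it became 0.022, -0.14, 0.0072 and -0.12 in PreMegE vs KLS, -0.054, -0.16, -0.035 and -0.15 in CFUe vs PreMegE, 0.028, -0.22, 0.0047 and -0.20 in PreGM vs KLS, -0.11, 0.80, 0.02 and 0.67 in GMP vs PreGM, and 0.050, -0.88, -0.046 and -0.74 in CFUe vs GMP (0.64 with the slide block). In Ter119 vs Mac1Gr1 it was -0.072 and -0.14 on the 2 spike-in scales. The cause of these moves was not tested, beyond the shift of all probes given above.

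Counts without the minimum fold were 6 in PreMegE vs KLS, 27 in CFUe vs PreMegE, 23 in PreGM vs KLS and 2 in GMP vs PreGM. They were 52 in CFUe vs GMP, 56 in Ter119 vs Mac1Gr1, 19 in the last-step and 30 in the second-step difference. The 19 were 14 higher (18.9%, background 26.0%) and 5 lower (6.76%, background 28.9%), both below the share of all probes. The 2 calls in CFUe vs PreMegE became 0 under quantile, either spike-in scaling, the series table and normexp, and 1 with the compared fractions alone. GMP vs PreGM gave 4 and 1 on the 2 spike-in scales, CFUe vs GMP 19 and 6 (1 with quantile or the series table), and Ter119 vs Mac1Gr1 4 and 4 (28 quantile, 26 series table, 9 normexp). PreMegE vs PreGM gave 1 with the mean of probes. The last-step difference gave 24 (quantile), 27 (spike-in), 26 (series table) and 0 (slide block), and the second-step difference 34 (spike-in) and 5 (mean of probes). The changes relative to the median member numbered 19 in the series table.

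Leaving out 1 array gave 57 to 65 calls in Ter119 vs CFUe, 61 to 64 in Mac1Gr1 vs GMP, 7 to 24 in Ter119 vs Mac1Gr1, 0 to 2 in CFUe vs PreMegE, 2 to 3 in CFUe vs GMP, 1 to 3 in the last-step and 2 to 4 in the second-step difference and 30 to 33 relative to the median member. Under spike-in scaling, leaving out GMP replicate 1 gave 1 in GMP vs PreGM and 1 in CFUe vs GMP. Replicate numbers did not pair the samples. Same-numbered arrays of different fractions had residual correlations of -0.431 to 0.367, and with the replicate number as a block 61 and 64 members were called in the last steps.

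Among named genes, a sign was counted as reversed where either value passed the test. On the spike-in and the 2-brightest scale these were Rpl21 (-0.39 and -0.42 in Ter119 vs CFUe, -1.02 and -0.85 in Mac1Gr1 vs GMP), Rpl14 (0.49 and 0.36) and Rpl27a (0.58 and 0.45) in GMP vs PreGM, Rpl14 (-0.16 and -0.014) and Rpl31 (-0.20 and -0.058) in CFUe vs GMP, Rps27a (-1.99 and -1.81) in Mac1Gr1 vs GMP, Fau (-1.32 and -1.35, then -1.57 and -1.39), Pabpc1 (-0.061 and -0.10) in Ter119 vs CFUe, and in Mac1Gr1 vs GMP Polr1a (-0.88 and -0.71), Efl1 (-1.87 and -1.70), Gtpbp2 (-0.45 and -0.28) and Rpl3l (-0.094, spike-in alone). Mycn was computed at -1.69 and -1.51 there, but it was above background on no array of either fraction, so these values and their sign have no meaning. The series table reversed Rps27a (-0.42) and Fau (-0.44 and -0.46), quantile scaling Fau in Mac1Gr1 vs GMP (-0.13), and normexp Rpl39l (0.50 and 0.68). The mean of probes reversed Rpl21 (-1.41 and -0.99) and the Rpl37 difference (0.28).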
